A study of Homo sapiens with 12 samples.

Results

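AP-1 and immediate early transcription factor genes were followed in MV-4-11 cells, an established human acute myeloid leukemia line that carries the KMT2A-AFF1 fusion gene and a duplicated stretch in FLT3, a growth factor receptor kinase. The genes were chosen by name and matched to the identifiers of the deposited table: FOS (ENSG00000170345), FOSB (ENSG00000125740), FOSL2 (ENSG00000075426), JUN (ENSG00000177606), JUNB (ENSG00000171223), JUND (ENSG00000130522), EGR1 (ENSG00000120738), ATF3 (ENSG00000162772), IER2 (ENSG00000160888) and IER3 (ENSG00000137331). They are 10 of its 20036 genes, and all are protein coding. RNA sequencing was done on 12 libraries in 4 groups of 3. The groups were eliglustat (ELI), which inhibits glucosylceramide synthase (the product of UGCG), venetoclax or ABT-199 (ABT), which binds the survival protein BCL2, both drugs together (Comb), and the solvent DMSO. Treatment lasted 48 h, and the sources used here do not give doses. The labels give bone marrow as the tissue and WT as the genotype for every group, so all groups, controls included, are the same leukemia line with its own fusion and FLT3 lesion. Nothing in the labels says that replicate libraries were grown as separate cultures. The p-values therefore measure no more than the spread between these libraries, which may be technical.

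Immediate early genes are switched on within minutes of a growth factor or stress signal without new protein synthesis, largely through RAS-ERK, JNK and p38 kinases acting on factors already bound at their promoters. AP-1 is a dimer of leucine zipper proteins. FOS proteins need a JUN partner, whereas JUN proteins can also pair with each other, and the makeup of the dimer sets how strongly it activates. FOS and FOSB carry strong activation domains, FOSL1 and FOSL2 lack comparable ones, and JUNB is a weaker activator than JUN at many sites. EGR1 is a zinc finger factor switched on by serum response factor (SRF) and its ETS partners. ATF3 is a stress-induced relative of the AP-1 family, and IER2 and IER3 encode early response proteins outside it. In myeloid cells AP-1 and EGR1 are known for their part in monocytic differentiation. FLT3 signals through the same kinase chain.

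Levels are FPKM, reads per kilobase of gene model scaled to the assigned reads of the library, as the authors deposited them. Reads recovered from the FPKM steps summed to 17259898 to 21082302 a library. A difference is one of log2(FPKM + 1) with its standard error (SE), which understates the change of genes near 1 FPKM, and a call is an adjusted p under 0.05 by limma over the 9959 genes that reached 1 FPKM in at least 3 libraries. All 10 genes passed that filter. IER3 reached 1 FPKM in 7 of 12 libraries, mostly those where it was higher, so its calls were in part set by the filter. Across genes, the deviation of a library from its group mean ran with transcript GC content. In ELI, ABT and DMSO the Spearman rho was -0.70, -0.70 and -0.79 for libraries numbered 1. It was 0.69, 0.38 and 0.81 for those numbered 2, and 0.19, 0.62 and 0.40 for those numbered 3. The Comb libraries lay at -0.29 to 0.26. Deviations within a group sum to 0, so they cannot all have the same sign. The group differences also ran with GC content across genes, with rho at -0.48 in ELI, 0.66 in ABT and -0.38 in Comb against DMSO, at -0.54 and -0.06 in Comb against ABT and against ELI, at -0.62 in ELI against ABT and at -0.50 in the interaction. Genes are not independent replicates. The count of called genes moved with single libraries. In proportion it moved most in ABT against DMSO, from 3 without DMSO replicate 3 to 931 without DMSO replicate 2. In number it moved most in ELI against DMSO, from 2291 without ELI replicate 1 to 5871 without DMSO replicate 1. The summed level of 11 markers of myelomonocytic identity was 604.8 to 633.7 FPKM in ELI, 491.2 to 561.8 in ABT, 622.4 to 628.5 in Comb and 542.3 to 608.5 in DMSO, of which FLT3 made 351.7 FPKM in ELI, 215.6 in ABT, 322.7 in Comb and 261.0 in DMSO. With eliglustat 3 of the 10 tested rose, MEIS1 (0.58), FLT3 (0.44) and HOXA9 (0.42), beside 16.4% of all tested genes. A further 3 fell, LYZ (-0.97), MPO (-0.59) and CSF1R (-0.29), beside 19.8% of all tested genes. The part of these shifts in any result was not tested. Of the erythroid markers the globin genes HBB, HBG1 and HBA1 were at 0, whereas EPOR averaged 3.64 FPKM in ELI, 5 in ABT, 3.01 in Comb and 4.26 in DMSO and was lower in Comb than in ABT (-0.59, adjusted p = 0.00082). The T cell sum was at most 0.049 FPKM. The B cell marker CD79A averaged 0.721 ± 0.162 FPKM in ELI, 1.18 ± 0.236 in ABT, 0.43 ± 0.141 in Comb and 1.44 ± 0.329 in DMSO (SD, n = 3 each), and the part of B cell markers in any result was not tested. The stromal and epithelial sum was 2.64 to 3.35 FPKM in ELI, 5.51 to 6.68 in ABT, 3.37 to 3.94 in Comb and 5.53 to 7.12 in DMSO, with COL1A2 and COL3A1 at 0. UGCG averaged 287.6 FPKM in ELI, 127.2 in ABT, 252.0 in Comb and 171.2 in DMSO, and BCL2 26.2, 20.6, 27.0 and 22.3 FPKM in the same order.

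The promoters of FOSL2 and EGR1, which were lower with eliglustat, of FOS, and of FOSB and JUN, which were higher, are shown because AP-1, CREB and SRF proteins are known to act on promoters of this class. Each window runs from 250 bases before to 50 bases from the start site on, from RefSeq on GRCh38.p14, and capitals mark motif matches. RefSeq windows were found for 9 of the 10 genes, not for IER3.
FOSL2 (chr2:28392608-28392907, plus strand): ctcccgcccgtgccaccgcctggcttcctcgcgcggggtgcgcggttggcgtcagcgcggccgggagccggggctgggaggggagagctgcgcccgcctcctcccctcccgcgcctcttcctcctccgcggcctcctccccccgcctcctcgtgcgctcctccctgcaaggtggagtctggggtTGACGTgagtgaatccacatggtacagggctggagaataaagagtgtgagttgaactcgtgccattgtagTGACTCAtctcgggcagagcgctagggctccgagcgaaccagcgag
EGR1 (chr5:138465229-138465528, plus strand): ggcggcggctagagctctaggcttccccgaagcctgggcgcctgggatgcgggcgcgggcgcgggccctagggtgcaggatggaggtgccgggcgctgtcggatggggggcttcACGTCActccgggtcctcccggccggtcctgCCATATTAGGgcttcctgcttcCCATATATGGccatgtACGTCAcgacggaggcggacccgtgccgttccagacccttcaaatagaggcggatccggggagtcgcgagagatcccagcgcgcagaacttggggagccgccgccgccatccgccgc
FOS (chr14:75278578-75278877, plus strand): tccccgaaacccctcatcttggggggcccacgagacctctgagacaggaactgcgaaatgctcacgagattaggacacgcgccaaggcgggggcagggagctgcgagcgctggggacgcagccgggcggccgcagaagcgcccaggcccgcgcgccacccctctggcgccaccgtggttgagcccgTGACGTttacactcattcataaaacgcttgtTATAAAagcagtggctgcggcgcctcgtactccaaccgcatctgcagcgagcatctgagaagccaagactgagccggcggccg
FOSB (chr19:45467746-45468045, plus strand): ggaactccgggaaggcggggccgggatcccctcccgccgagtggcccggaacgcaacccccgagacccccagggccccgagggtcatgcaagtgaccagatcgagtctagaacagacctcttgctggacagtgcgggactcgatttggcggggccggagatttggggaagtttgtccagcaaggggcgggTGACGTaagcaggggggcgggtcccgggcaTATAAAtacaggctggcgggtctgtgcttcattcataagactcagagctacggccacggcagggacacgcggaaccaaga
JUN (chr1:58783998-58784297, minus strand): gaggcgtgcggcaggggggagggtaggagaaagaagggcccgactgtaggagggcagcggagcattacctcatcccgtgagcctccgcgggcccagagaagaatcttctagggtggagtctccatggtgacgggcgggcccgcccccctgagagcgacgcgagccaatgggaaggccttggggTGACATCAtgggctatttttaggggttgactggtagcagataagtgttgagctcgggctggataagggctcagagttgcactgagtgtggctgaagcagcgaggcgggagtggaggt

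The AP-1 site TGACTCA or TGAGTCA was searched on both strands and occurs in 4.95% of the 35116 RefSeq windows. Among these genes it lies in FOSL2 only, where it starts at position 4, counted from 0 at the first transcribed base. The core of the cyclic AMP response element, TGACGT, which the CREB and ATF proteins bind, occurs on either strand in 7.98% of windows and lies in 5 of the 9: FOS, FOSB, FOSL2, JUND and EGR1. It starts at -64 in FOS, -60 in FOSB and -66 in FOSL2. JUN holds TGACATCA, a variant known for binding JUN with ATF2, at -67, and ATF3 holds it at -123, against 2.61% of windows on either strand. EGR1 holds 2 CArG boxes, the site of SRF, starting at -105 and -83, against 1.29% of windows. Sites farther than 250 bases before the start site were not searched, so the other genes may hold one there. TATAAA on the plus strand lies in FOS, FOSB and JUNB, against 7.33% of windows. The EGR1 site GCGTGGGCG, in 0.795% of windows on either strand, was not among the letters of these 9. The TGACGT core thus lies in FOSB and JUND, which were higher with eliglustat, in FOSL2 and EGR1, which were lower, and in FOS, which was not called.

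Among JUN family genes, JUND was the most abundant and JUN the least in every group. JUND averaged 108 ± 4.42 FPKM in ELI, 83.5 ± 11.3 in ABT, 106 ± 4.73 in Comb and 74.9 ± 19.5 in DMSO (SD, n = 3). JUNB lay between 37.5 and 49.1 FPKM and JUN between 0.931 and 3.85 FPKM over the 12 libraries. Among FOS family genes, FOS was the most abundant at 20.6 to 37.2 FPKM, FOSL2 had 6.22 to 20.7 FPKM and FOSB 1.19 to 4.27 FPKM. EGR1 ranged from 19.4 to 74.9 FPKM and IER2 from 8.84 to 16.0 FPKM. ATF3, at 1.08 to 3.05 FPKM, and IER3, at 0.402 to 3.54 FPKM or 11 to 94 reads a library, had the lowest means over all libraries. JUNB shares exon bases with HOOK2 on the other strand, IER2 with the antisense gene AC011446.2 and IER3 with IER3-AS1. Whether reads were counted by strand is not stated, so reads of each pair cannot be told apart.

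**Figure D1:**
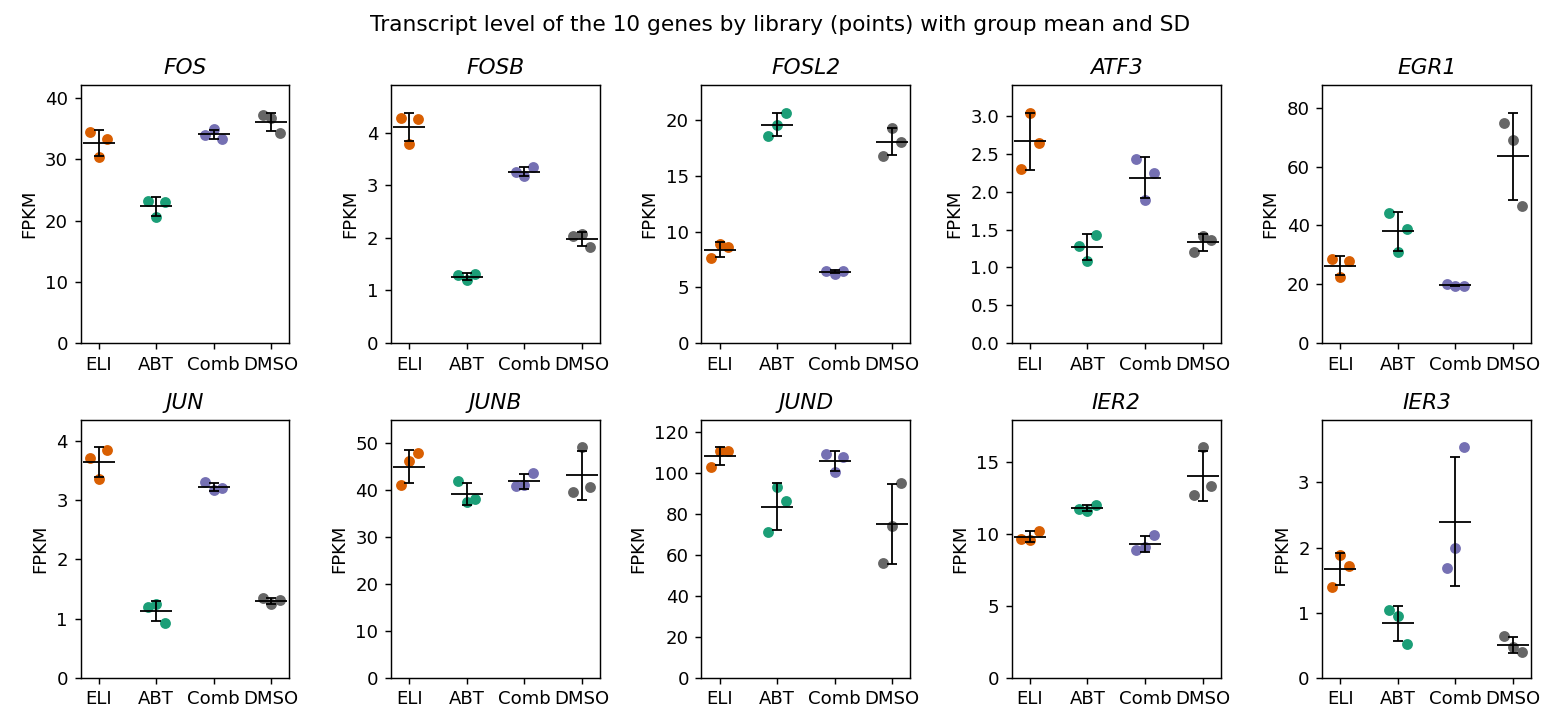
FPKM (y axis, from 0) of each of the 10 genes in each library (points) by group (x axis: ELI, ABT, Comb, DMSO), with the group mean and SD. FOSB, JUN and ATF3 are high in ELI and Comb, FOSL2 and EGR1 are low there, and FOS is low in ABT alone, at 20.6 to 23.2 FPKM.

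Eliglustat alone changed the makeup of this gene set. JUN, FOSB, ATF3, JUND and IER3 rose, FOSL2, EGR1 and IER2 fell, and FOS and JUNB did not pass the test. That is 5 of 10 higher and 3 lower, beside 16.4% of all tested genes higher, 19.8% lower and 36.1% either way. The median difference of the 10 was 0.31, and that of all tested genes was 0.01. ELI and DMSO libraries did not overlap for 8 of the 10, beside 40.5% of all tested genes. In bulk RNA fewer cells making a transcript and less transcript per cell cannot be told apart.

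JUN, the founding JUN family gene, had 3.72, 3.36 and 3.85 FPKM in ELI, against 1.34, 1.24 and 1.31 FPKM in DMSO. Every ELI library lay far above every DMSO library. The ELI mean was 2.8 times the DMSO mean, and the difference was 1.01 (SE 0.07, adjusted p = 1.83e-06).

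FOSB, a strongly activating FOS family gene, had 4.27, 3.79 and 4.25 FPKM in ELI, against 2.04, 2.08 and 1.82 FPKM in DMSO. The groups did not overlap. The ELI mean was 2.07 times that of DMSO, and the difference was 0.78 (SE 0.06, adjusted p = 6.32e-06).

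FOSL2, which encodes the FOS family protein Fra-2, had 7.59, 8.91 and 8.66 FPKM in ELI, against 16.8, 19.3 and 18.1 FPKM in DMSO. All 3 ELI libraries lay below all 3 of DMSO. The ELI mean was 0.46 times that of DMSO, a fall of 1.02 on the log2 scale (SE 0.08, adjusted p = 2.13e-06). FOSB and FOSL2, of the same family, thus moved in opposite directions.

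EGR1 had 28.5, 22.5 and 28.0 FPKM in ELI, against 74.9, 68.9 and 46.7 FPKM in DMSO. The groups did not overlap, and DMSO replicate 3 was the nearest to ELI. EGR1 fell by 1.22 (SE 0.17, adjusted p = 0.000258), the largest difference of the 10 on this scale. IER2, an early response gene, had 9.6, 9.59 and 10.2 FPKM in ELI, against 12.7, 16.0 and 13.3 FPKM in DMSO, with no overlap. It fell by 0.47 (SE 0.08, adjusted p = 0.00114).

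ATF3, the stress-induced factor, had 2.3, 3.05 and 2.65 FPKM in ELI, against 1.2, 1.42 and 1.36 FPKM in DMSO, with no overlap. The difference was 0.65 (SE 0.09, adjusted p = 0.000334), and 0.99 with voom on recovered reads, which adds no such pseudocount. IER3, an early response gene linked to cell survival, had 1.4, 1.89 and 1.72 FPKM in ELI, against 0.644, 0.477 and 0.402 FPKM in DMSO. No libraries overlapped. The difference was 0.82 (SE 0.17, adjusted p = 0.00389), and 1.55 with a pseudocount of 0.1.

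JUND, the most abundant JUN family gene and the one with the highest GC content of the 10 (69.7%), had 102.9, 110.5 and 110.7 FPKM in ELI, against 55.8, 73.9 and 94.8 FPKM in DMSO. The groups did not overlap, but the DMSO libraries were far apart. The difference was 0.56 (SE 0.15, adjusted p = 0.016). It was 0.36 without DMSO replicate 1 (adjusted p = 0.017) and 0.66 after removal of a loess trend on transcript GC content and on length (adjusted p = 0.00112). It missed the threshold with only the ELI and DMSO libraries in the fit (adjusted p = 0.0583) and without ELI replicate 3 (adjusted p = 0.0513).

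FOS itself had 34.4, 30.4 and 33.4 FPKM in ELI, against 37.2, 36.7 and 34.3 FPKM in DMSO. ELI replicate 1 lay just above DMSO replicate 3, and the difference of -0.14 (95% interval -0.29 to 0.01, adjusted p = 0.138) did not pass the test. JUNB had 41.1, 46.1 and 47.9 FPKM in ELI, against 39.6, 49.1 and 40.6 FPKM in DMSO, with full overlap. Its difference was 0.07 (95% interval -0.13 to 0.26, adjusted p = 0.578), but 0.20 after removal of the GC and length trend (adjusted p = 0.017).

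**Figure D2:**
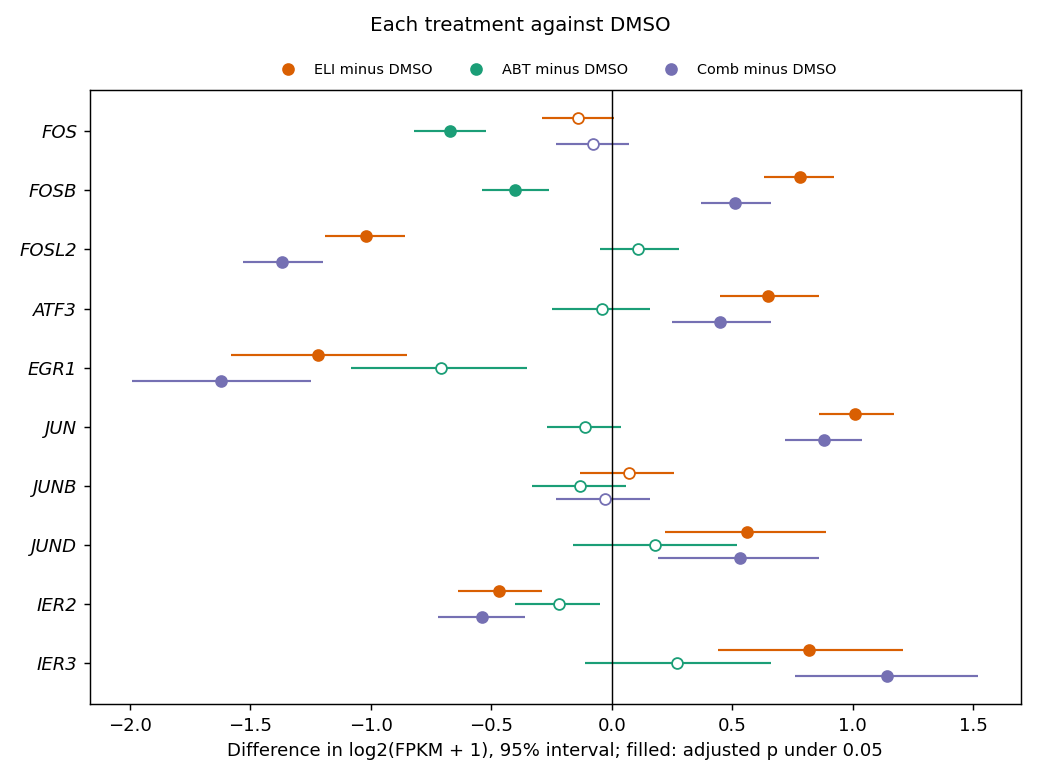
Difference in log2(FPKM + 1) from DMSO (x axis) for each gene (rows) in ELI, ABT and Comb, with 95% intervals and filled points for an adjusted p under 0.05. EGR1 reaches -1.62 in Comb, JUN 1.01 in ELI, and in ABT only FOS and FOSB are filled.

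Venetoclax alone lowered FOS and FOSB, and no gene of the set passed the test upward. That is 2 of 10 lower, beside 0.151% of all tested genes lower, 0.151% either way and 0% higher, and 4 of the 10 (FOS, FOSB, EGR1 and IER2, all lower) had an unadjusted p under 0.05. These shares are of the unpaired fit. A limma fit that pairs same-numbered libraries of ELI, ABT and DMSO called 2352 of the 9959 genes for ABT against DMSO. Among the 10 it called FOS (adjusted p = 0.00108), FOSB and EGR1 (both adjusted p = 0.0147). The median difference of the 10 was -0.12, and that of all tested genes was -0.02. These tests use the same DMSO libraries as those of eliglustat, so the differences from DMSO are not independent of each other.

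FOS had 23.2, 20.6 and 23.0 FPKM in ABT, against 37.2, 36.7 and 34.3 FPKM in DMSO. The ABT libraries all lay below the lowest FPKM of the other 9 libraries, 30.4. The ABT mean was 0.62 times that of DMSO, a fall of 0.67 (SE 0.07, adjusted p = 0.00274). The call was lost when only the ABT and DMSO libraries were fitted (adjusted p = 0.27), a fit in which no gene of the table was called.

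FOSB had 1.29, 1.19 and 1.31 FPKM in ABT, against 2.04, 2.08 and 1.82 FPKM in DMSO, with no overlap. It fell by 0.40 (SE 0.06, adjusted p = 0.0405). FOSB lost its call whenever any of the 12 libraries but DMSO replicate 2 was left out, with adjusted p-values of 0.00368 to 0.534 over all settings, and its fall was 0.61 with a pseudocount of 0.1.

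EGR1 had 44.2, 31 and 38.9 FPKM in ABT, against 74.9, 68.9 and 46.7 FPKM in DMSO. The groups did not overlap, but ABT replicate 1 and DMSO replicate 3 were close. The difference of -0.71 (95% interval -1.08 to -0.35, adjusted p = 0.129) did not pass the test. It did with the replicate block (adjusted p = 0.0494), a fit that sets same-numbered libraries against each other, and after the GC and length trend was taken out (-0.78, adjusted p = 0.0253). IER2 had 11.7, 11.6 and 12 FPKM in ABT, all below the lowest DMSO library at 12.7 FPKM, and its difference of -0.22 (adjusted p = 0.203) did not pass the test, but that of -0.30 after the same removal did (adjusted p = 0.011). In all, 4 of the 10 genes had no overlap between ABT and DMSO libraries, beside 13.5% of all tested genes.

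FOSL2 and JUN, which eliglustat moved, had no call with venetoclax. FOSL2 had 18.6, 19.6 and 20.7 FPKM in ABT, and JUN 1.2, 1.25 and 0.931 FPKM. Their differences from DMSO were 0.11 (95% interval -0.05 to 0.28, adjusted p = 0.342) and -0.11 (95% interval -0.27 to 0.04, adjusted p = 0.326). In ABT, JUNB had 41.9, 37.5 and 38 FPKM, JUND 71.1, 93.2 and 86.2 FPKM, ATF3 1.28, 1.08 and 1.43 FPKM and IER3 1.04, 0.944 and 0.523 FPKM. All 4 overlapped DMSO, with differences from -0.13 to 0.27 and adjusted p-values of 0.326 to 0.788. JUNB passed after removal of the GC and length trend (-0.22, adjusted p = 0.049).

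With both drugs, JUN, FOSB, ATF3, JUND and IER3 rose against DMSO, and FOSL2, EGR1 and IER2 fell. That is 5 of 10 higher and 3 lower, beside 25.7% of all tested genes higher, 25.8% lower and 51.5% either way. The libraries of Comb and DMSO did not overlap for these 8, beside 55.7% of all tested genes. None of the 8 calls was lost under the 22 other settings. FOS had 34.0, 34.9 and 33.4 FPKM in Comb, which overlapped DMSO, with a difference of -0.08 (95% interval -0.23 to 0.07, adjusted p = 0.362).

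FOSL2 had 6.5, 6.22 and 6.44 FPKM in Comb, against 16.8, 19.3 and 18.1 FPKM in DMSO. The 3 Comb libraries were the lowest of all 12 and close together. The Comb mean was 0.35 times that of DMSO, a fall of 1.37 (SE 0.08, adjusted p = 4.5e-08). EGR1 had 19.9, 19.4 and 19.5 FPKM in Comb, also the lowest of all 12, against 74.9, 68.9 and 46.7 FPKM in DMSO. It fell by 1.62 (SE 0.17, adjusted p = 1.17e-05), with a Comb mean 0.31 times that of DMSO.

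JUN had 3.31, 3.18 and 3.2 FPKM in Comb, above all DMSO libraries, and its difference was 0.88 (adjusted p = 1.35e-06). FOSB had 3.26, 3.17 and 3.34 FPKM in Comb, between the ELI and DMSO libraries, and its difference was 0.51 (adjusted p = 5.11e-05). ATF3 had 2.43, 1.89 and 2.25 FPKM in Comb, above DMSO, and its difference was 0.45 (adjusted p = 0.00186), or 0.68 with a pseudocount of 0.1. JUND, at 109.4, 100.5 and 107.6 FPKM in Comb, differed from DMSO by 0.53 (adjusted p = 0.014), and by 0.33 without DMSO replicate 1. IER2 had 8.84, 9.1 and 9.88 FPKM in Comb and fell by 0.54 (adjusted p = 0.00019).

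IER3 had 1.68, 1.99 and 3.54 FPKM in Comb, against 0.644, 0.477 and 0.402 FPKM in DMSO. Comb replicate 3 stood above the other 11 libraries. The difference was 1.14 (SE 0.17, adjusted p = 0.000242), 1.99 with a pseudocount of 0.1, and 0.91 without Comb replicate 3 (adjusted p = 0.000324). JUNB had 40.9, 41.1 and 43.7 FPKM in Comb and overlapped DMSO, with a difference of -0.03 (95% interval -0.23 to 0.16, adjusted p = 0.766).

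Setting both drugs against venetoclax gives what eliglustat added where venetoclax was present. FOS, FOSB, JUN, ATF3 and IER3 were higher in Comb, and FOSL2, EGR1 and IER2 were lower. That is 5 of 10 higher and 3 lower, beside 35.4% of all tested genes higher, 31.7% lower and 67.2% either way. The median difference of the 10 was 0.42, and that of all tested genes was 0.02. Comb and ABT libraries did not overlap for 9 of the 10, JUNB being the exception, beside 76.5% of all tested genes. FOS had 34.0, 34.9 and 33.4 FPKM in Comb, against 23.2, 20.6 and 23.0 FPKM in ABT. The groups were far apart, the Comb mean was 1.53 times that of ABT, and the difference was 0.59 (SE 0.07, adjusted p = 2.23e-05). FOSL2 had a Comb mean 0.33 times that of ABT, a difference of -1.48 (adjusted p = 2.15e-08).

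JUN and FOSB differed between Comb and ABT by 0.99 (adjusted p = 4.02e-07) and 0.91 (adjusted p = 3.27e-07), or by 1.53 and 1.37 with voom on recovered reads. EGR1 had 19.9, 19.4 and 19.5 FPKM in Comb, against 44.2, 31 and 38.9 FPKM in ABT, a difference of -0.91 (adjusted p = 0.000627). ATF3 differed by 0.49 (adjusted p = 0.000742), or 0.75 with a pseudocount of 0.1, and IER3 by 0.87 (adjusted p = 0.00113), or 1.4 with that pseudocount. IER2 differed by -0.32 (adjusted p = 0.0044), but by -0.09 after removal of the GC and length trend (adjusted p = 0.18). JUND, with a difference of 0.35 (adjusted p = 0.064), and JUNB, at 0.10 (adjusted p = 0.348), were not called. Both passed with that trend removed, at 0.53 (adjusted p = 0.0028) and 0.31 (adjusted p = 0.00057). JUND also passed without DMSO replicate 1 (adjusted p = 0.0088) or 3 (adjusted p = 0.02). It passed too with only the Comb and ABT libraries fitted (adjusted p = 0.0081) and with the replicate block (adjusted p = 0.03). That block pairs Comb by number, although deviations of same-numbered ABT and Comb libraries correlated at -0.26 to 0.16.

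The interaction, Comb minus ABT less ELI minus DMSO, tests whether the eliglustat difference depended on venetoclax. It was called for FOS and FOSL2, 1 higher and 1 lower of 10, beside 1.68% of all tested genes higher, 3.67% lower and 5.34% either way. For FOS the eliglustat difference was 0.59 with venetoclax and -0.14 without it, and the interaction was 0.73 (SE 0.10, 95% interval 0.52 to 0.95, adjusted p = 0.000832). The FOS interaction kept its call under all 21 other settings, at 0.68 to 0.81. For FOSL2 the differences were -1.48 with venetoclax and -1.02 without it, an interaction of -0.46 (SE 0.11, adjusted p = 0.0269). FOSL2 lost this call without any 1 of ELI replicates 2 and 3, ABT replicates 2 and 3, DMSO replicate 3 and the 3 Comb libraries, with adjusted p-values of up to 0.086. FOSB, JUN, JUNB, JUND, EGR1, ATF3, IER2 and IER3 were not called, with interactions of -0.21 to 0.31, and EGR1 had an interval of -0.21 to 0.83. IER2, at 0.15, was called after removal of the GC and length trend (0.24, adjusted p = 0.0485). JUN showed eliglustat differences of 0.99 and 1.01 with and without venetoclax, and an interval of -0.24 to 0.20 for the interaction. Every interaction rests in part on the Comb libraries. Deviations of same-numbered libraries correlated at 0.24 to 0.88 among ELI, ABT and DMSO, but at -0.40 to 0.16 with Comb. Whether Comb was prepared apart is not stated, and the part of this in the interaction was not tested.

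**Figure D3:**
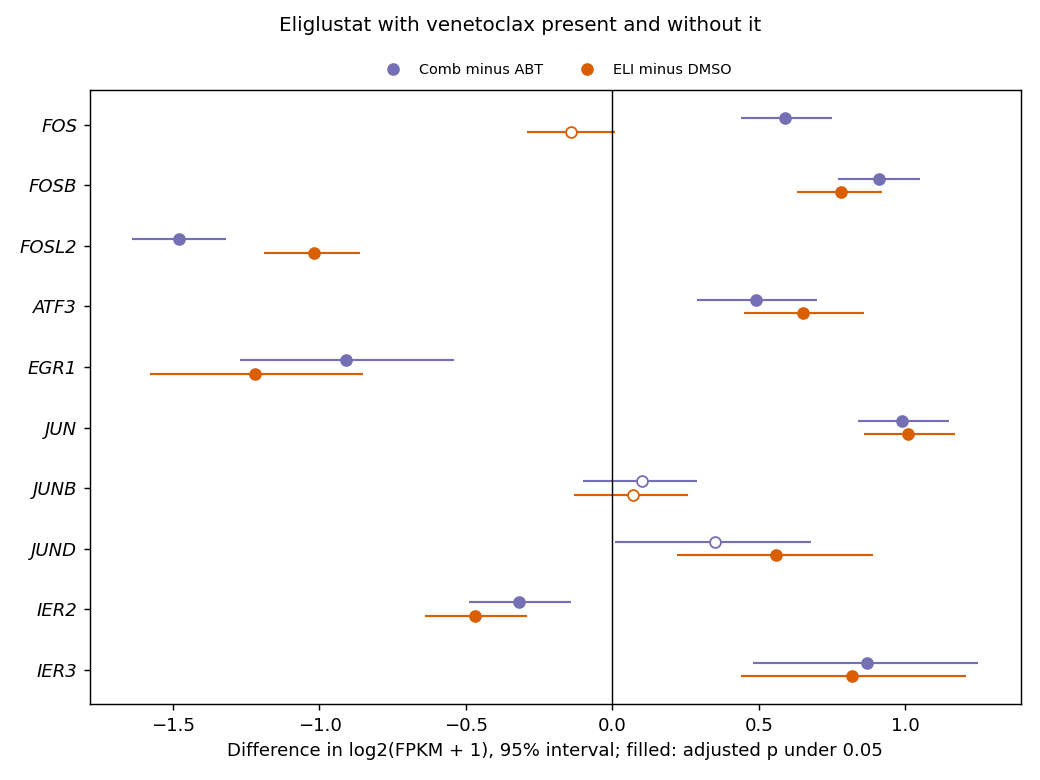
Eliglustat difference in log2(FPKM + 1) (x axis) for each gene (rows), as Comb minus ABT and as ELI minus DMSO, with 95% intervals and filled points for an adjusted p under 0.05. The intervals of FOS lie apart, at 0.59 and -0.14, and those of JUN nearly coincide.

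Both drugs against eliglustat alone showed less. FOSB and FOSL2 were lower in Comb and none of the 10 was higher by limma (3 had an unadjusted p under 0.05: FOSB, FOSL2 and EGR1, all lower), beside 6.52% of all tested genes lower, 3.03% higher and 9.55% either way. FOSB had 3.26, 3.17 and 3.34 FPKM in Comb, against 4.27, 3.79 and 4.25 FPKM in ELI, a difference of -0.26 (SE 0.06, adjusted p = 0.0234). FOSL2 had 6.5, 6.22 and 6.44 FPKM in Comb, against 7.59, 8.91 and 8.66 FPKM in ELI, a difference of -0.34 (SE 0.08, adjusted p = 0.0116). Neither gene's libraries overlapped, and JUN and EGR1 in Comb also lay below all ELI libraries, which makes 4 of 10 beside 40.2% of all tested genes. EGR1 had a difference of -0.40 (adjusted p = 0.179) and JUN -0.13 (adjusted p = 0.319), and neither was called. FOSB lost its call without ELI replicate 1 or 3 or any of the Comb libraries, and FOSL2 without ELI replicate 2 or 3 or Comb replicate 2. EGR1 gained one with only the ELI and Comb libraries fitted (adjusted p = 0.0056). Without the 4 libraries numbered 1, FOSB lost its call (adjusted p = 0.0825) and ATF3 gained one (-0.33, against -0.20 with them, adjusted p = 0.0494). FOS, with a difference of 0.06, and the remaining 5 genes were not called.

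The single drugs compared directly, ELI against ABT, differed in 9 of the 10 genes. FOSB (1.17, adjusted p = 1.94e-07), JUN (1.13, adjusted p = 6.11e-07), ATF3 (0.69), IER3 (0.55), FOS (0.53, adjusted p = 9.77e-05) and JUND (0.38, adjusted p = 0.0499) were higher in ELI. FOSL2 (-1.14, adjusted p = 7.92e-07), EGR1 (-0.51, adjusted p = 0.0203) and IER2 (-0.25, adjusted p = 0.02) were lower in ELI. That is 6 higher and 3 lower, beside 33.2% of all tested genes higher, 29.8% lower and 63% either way. The libraries did not overlap for 9 of the 10, beside 71.2% of all tested genes. FOS averaged 32.7 ± 2.11 FPKM in ELI and 22.3 ± 1.48 FPKM in ABT (SD, n = 3 each), with no overlap. JUND lost its call in 13 of 23 other settings. EGR1 lost its call without ELI replicate 2 or ABT replicate 1 or 3, IER2 without ELI replicate 1 or 2 or ABT replicate 3, and IER3 without ELI replicate 2 or ABT replicate 3. After removal of the GC and length trend neither EGR1 (-0.33, adjusted p = 0.122) nor IER2 (-0.03, adjusted p = 0.691) passed the test. JUNB, at 0.20 (adjusted p = 0.0718), was called after that removal (0.43, adjusted p = 6.99e-05), without the 4 libraries numbered 1 (0.31, adjusted p = 0.00567) and without ELI replicate 1, ABT replicate 1 or DMSO replicate 1 or 2. With voom on recovered reads ATF3 differed by 1.07 and IER3 by 1.04.

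By family, the share of each FOS gene differed between groups while the summed level was close in the 3 drug groups. The sum of FOS, FOSB, FOSL1 and FOSL2 was 52.6 ± 1.46 FPKM in ELI, 50.8 ± 1.58 in ABT, 50.8 ± 0.425 in Comb and 62.9 ± 3.0 in DMSO (SD, n = 3). FOSL2 made up 16.0% ± 1.67 of this sum in ELI, 38.6% ± 1.57 in ABT, 12.6% ± 0.362 in Comb and 28.7% ± 1.6 in DMSO. FOS made up 62.2% ± 2.39 in ELI, 43.9% ± 2.18 in ABT, 67.1% ± 1.48 in Comb and 57.4% ± 2.07 in DMSO. ABT had the highest share of FOSL2 and the lowest of FOS, with no overlap with any other group. FOSB made up 7.8% ± 0.304 in ELI, 2.48% ± 0.0733 in ABT, 6.4% ± 0.177 in Comb and 3.15% ± 0.123 in DMSO. FOSL1, which encodes Fra-1, averaged 7.34 FPKM in ELI, 7.59 in ABT, 7.09 in Comb and 6.8 in DMSO and was called in no comparison. Its share was 14.0%, 15%, 13.9% and 10.8% in the same order. These shares are ratios within a library and carry no test.

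JUN family levels summed to 156.7 ± 7.85 FPKM in ELI, 123.8 ± 8.99 in ABT, 151.0 ± 5.44 in Comb and 119.3 ± 20.4 in DMSO (SD, n = 3). JUND was 69.0% of the sum in ELI, 67.2% in ABT, 70.1% in Comb and 62.2% in DMSO. JUN, although it rose most among the JUN genes, was 2.33% of the family in ELI, 0.915% in ABT, 2.14% in Comb and 1.11% in DMSO.

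**Figure D4:**
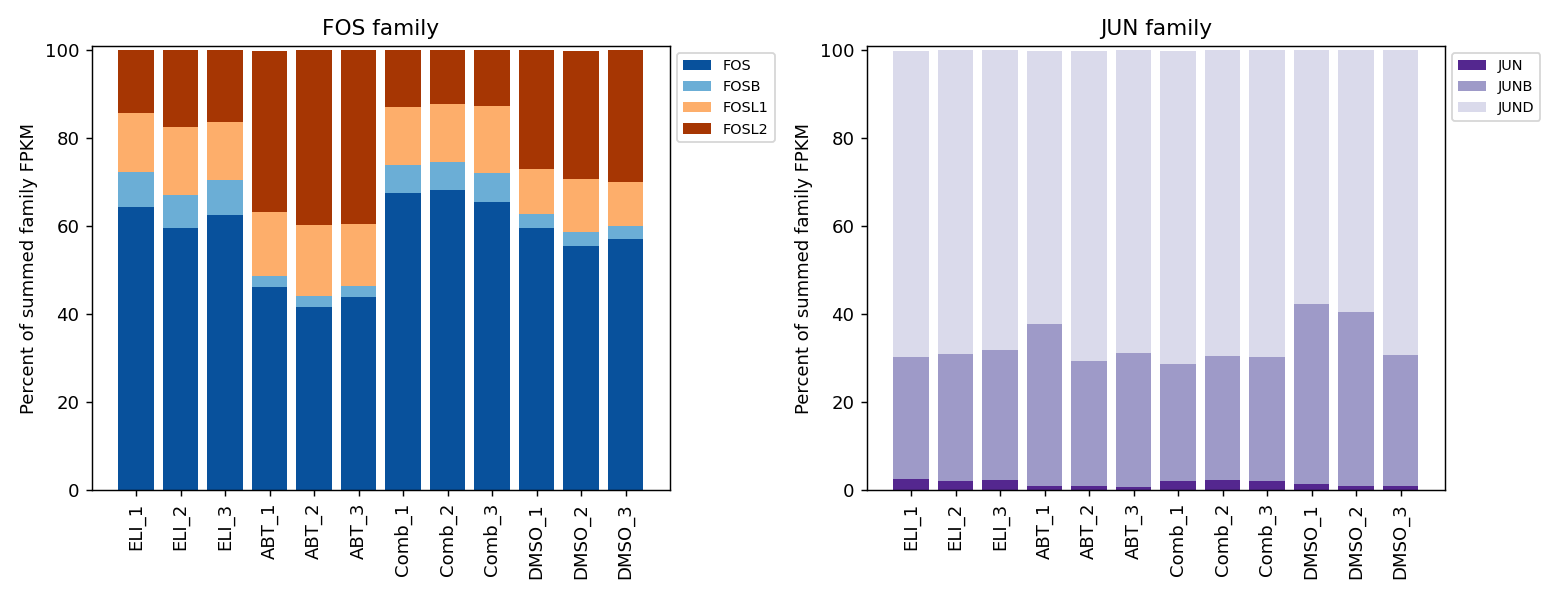
Percent of the summed FPKM (y axis, 0 to 100) that each gene of the FOS family (left) and the JUN family (right) takes in each library (x axis). FOSL2 takes 36.8% to 39.7% in the ABT libraries and 12.2% to 12.9% in the Comb libraries, and JUN is a thin band in all.

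Other genes of the pathway were read from lists chosen with earlier results of these data known. Of 22 other immediate early genes tested, 13 rose and 2 fell with eliglustat, beside 16.4% and 19.8% of all tested genes, with a median difference of 0.37 beside 0.01 over all tested genes. KLF6 (1.71, adjusted p = 3e-07) and RHOB (1.62, adjusted p = 7.2e-07), a Kruppel-like factor and a small GTPase, and BTG2 (0.90, adjusted p = 2e-06), an antiproliferative gene, had the smallest adjusted p-values. KLF6 averaged 13.9 ± 0.246 FPKM in ELI, 2.8 ± 0.325 in ABT, 11.5 ± 0.537 in Comb and 3.58 ± 0.554 in DMSO (SD, n = 3). Its order of groups was that of JUN and FOSB: ELI and Comb above DMSO, and ABT lowest. KLF2, also among the 13, averaged 2.21 FPKM in ELI, 0.27 in ABT, 1.89 in Comb and 0.514 in DMSO. NR4A2, another of the 13, averaged 1.15, 0.396, 0.945 and 0.496 FPKM in the same order. Both passed the filter only through ELI and Comb libraries, so their calls were in part set by the filter. With venetoclax 0 of the 22 rose and 3 fell, beside 0% and 0.151% of all tested genes: ZFP36L1 (-0.41, adjusted p = 0.013), BTG2 (-0.40, adjusted p = 0.041) and EGR3 (-0.70, adjusted p = 0.041). With both drugs 13 rose and 6 fell against DMSO, beside 25.7% and 25.8% of all tested genes, led by RHOB (1.80), KLF6 (1.46) and KLF10 (0.81). Against ABT, 16 were higher and 4 lower in Comb, beside 35.4% and 31.7% of all tested genes. Against ELI none was higher and 4 were lower, beside 3.03% and 6.52%, among them EGR3 (-0.77, adjusted p = 0.00096). EGR3, a listed relative of EGR1, was higher in ELI than in DMSO (0.41, adjusted p = 0.017), whereas EGR1 was lower there. The listed relatives EGR2 and EGR4 did not pass the filter. EGR2 averaged 0.207 FPKM in ELI and 0.261 in DMSO, and EGR4 was at 0 in all libraries.

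Of 14 AP-1 partners and competitors tested, 2 rose and 2 fell with eliglustat, a smaller share than the 36.1% of all tested genes called either way. MAFF (0.54, adjusted p = 0.00029), a small MAF protein, and ATF5 (0.61, adjusted p = 0.0012) rose. BATF3 (-0.46, adjusted p = 0.00041), which pairs with JUN proteins, fell. BATF3 averaged 0.579 FPKM in ELI, 1.6 in ABT, 0.382 in Comb and 1.17 in DMSO, and passed the filter through the ABT and DMSO libraries. With both drugs 4 rose and 3 fell against DMSO, near the 51.5% of all tested genes, and BATF3 was among those that fell, at -0.65 (adjusted p = 1.2e-05). With venetoclax none was called, beside 0.151% of all tested genes.

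Of 7 SRF, ETS partner and EGR1 corepressor genes tested, MRTFA alone was called with eliglustat, at -0.34 (adjusted p = 0.019), beside 36.1% of all tested genes. SRF, the factor at the CArG boxes of EGR1, averaged 22.8 ± 2.1 FPKM in ELI, 27.8 ± 2.47 in ABT, 22.9 ± 0.96 in Comb and 23.6 ± 3.09 in DMSO (SD, n = 3). It differed from DMSO by -0.04 in ELI (adjusted p = 0.75) and -0.03 in Comb (adjusted p = 0.8). SRF was lower than in ABT both in ELI (-0.28, adjusted p = 0.029) and in Comb (-0.27, adjusted p = 0.032). Of all tested genes 63% and 67.2% were called either way in these 2 comparisons. NAB2, an EGR1 corepressor that is itself an EGR1 target, averaged 13.8 ± 1.45 FPKM in ELI, 11.4 ± 3.21 in ABT, 9.87 ± 0.477 in Comb and 10.9 ± 3.23 in DMSO (SD, n = 3) and was called in no comparison. With both drugs 1 of the 7 rose and 2 fell against DMSO, beside 51.5% of all tested genes called either way. ELK3 rose by 0.65 (adjusted p = 0.00024). MRTFA fell by 0.47 (adjusted p = 0.002) and ELK1 by 0.37 (adjusted p = 0.025).

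Of 23 genes of the kinase chain tested, 5 rose and 5 fell with eliglustat, near the 36.1% of all tested genes called either way, with a median of 0.06. MAPK3, which encodes ERK1, fell by 0.54 (adjusted p = 0.002), RPS6KA4 fell by 0.46 (adjusted p = 0.0048), and MAP2K4, which activates JNK, rose by 0.50 (adjusted p = 0.0061). None was called with venetoclax, beside 0.151% of all tested genes. With both drugs 8 rose and 6 fell against DMSO, beside 51.5% of all tested genes called either way. Of 11 AP-1 target genes tested, 6 rose and 1 fell with eliglustat, beside 16.4% and 19.8% of all tested genes. VEGFA (0.53, adjusted p = 8e-05), the chemokine CXCL8 (1.58, adjusted p = 0.00039) and the protease PLAU (0.55, adjusted p = 0.0017) rose. CXCL8 averaged 20.1 ± 3.1 FPKM in ELI, 3.0 ± 1.33 in ABT, 28.2 ± 1.34 in Comb and 6.22 ± 2.3 in DMSO (SD, n = 3). None of the 11 was called with venetoclax, beside 0.151% of all tested genes. With both drugs 7 rose and 2 fell, beside 25.7% and 25.8% of all tested genes.

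The genes whose centred log2(FPKM + 1) profile over the 12 libraries lay nearest to a member were sought among the 6305 tested genes that averaged 5 FPKM or more. Nearest to JUN were RNF145, AHNAK and NRP1, at root-mean-square distances of 0.071, 0.083 and 0.096. AHNAK averaged 80.8 FPKM in ELI, 35.2 in ABT, 79.3 in Comb and 41.1 in DMSO. Nearest to FOS were CCNG2, PARP15 and PPIL3, at 0.138, 0.147 and 0.157, and CCNG2 averaged 9.1 FPKM in ELI, 5.9 in ABT, 8 in Comb and 8.4 in DMSO. EGR1 had no neighbour as near: PARP2, FANCI and MAP4K1 lay at 0.292, 0.296 and 0.297. A distance depends on the size of the change as well as its shape, and the profiles share the 12 libraries.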

How the data were processed

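Total RNA of MV-4-11 cells was sequenced in 12 libraries, and groups and replicate numbers come from the sample titles. The authors deposited FPKM values for 20036 Ensembl genes, per the file headers. The sources used here do not give the aligner, counting tool, strand setting, genome build or annotation. Symbols were matched for 20011 identifiers, and 0 columns were unmapped. The genes, the lists and the tests were chosen with earlier results of these data known.

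Values were taken as log2(FPKM + 1). The 9959 genes that reached 1 FPKM in at least 3 libraries were fitted with limma 3.58.1 in R 4.3.3, as 4 group means over 12 libraries with trended, robust moderation, and p-values were adjusted by Benjamini-Hochberg over these genes, separately for each contrast (threshold 0.05). The interaction is (Comb minus ABT) minus (ELI minus DMSO). The scripts were tested on simulated data.

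Low FPKM values were whole multiples of 1 step, so whole reads were recovered for all 16361 genes above 0 (100.0%), at a tolerance of 1e-05 and then 0.001. The voom method of limma on those reads called 3633 genes for ELI, 15 for ABT and 5180 for Comb against DMSO. GC content came from the longest protein-coding transcript in GENCODE 29 (9936 of 9959 genes, 99.8%), and a loess trend (span 0.5) on it and gene length was removed in 1 alternative. Other alternatives were pseudocounts of 0.1 and 0.5, no filter, median-of-ratios scaling, a replicate block, fits of the compared libraries only, and leaving out libraries. Deviations of same-numbered libraries correlated at 0.24 to 0.88 among ELI, ABT and DMSO. The reported fit did not use this pairing. It entered only through the replicate block, run on all 12 libraries and on the 9 libraries of those groups. With Comb the correlations were -0.40 to 0.16, which gave no pairing, yet the block over 12 libraries pairs Comb by number. At library totals of 17259898 to 21082302 reads, counting error is largest for IER3.

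Named beyond the 10 genes are, for each list and comparison described, called genes with the smallest adjusted p (at most 3), FOSL1, SRF, NAB2 and BATF3, the drug targets, and the 3 nearest profiles to FOS, JUN and EGR1. EGR2, EGR3 and EGR4 against EGR1, the levels of KLF6, KLF2, NR4A2 and CXCL8, and the marker genes named with values were singled out after their values were seen. Some marker and list genes are not reported here.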

Additional observations from a re-analysis of the deposited data

Results flagged for a closer look

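The eliglustat difference of FOS was not the same with and without venetoclax by the test of the interaction, at 0.73 (log2, adjusted p = 0.000832 by limma). It was 0.59 between Comb and ABT and -0.14 between ELI and DMSO. Against DMSO the FOS difference was -0.14 in ELI, -0.67 in ABT and -0.08 in Comb. Whether the Comb libraries were prepared apart is not stated, and the part of this in any interaction was not tested. FOSL2 had an interaction of -0.46 (adjusted p = 0.0269), with -1.48 between Comb and ABT and -1.02 between ELI and DMSO, and it missed the threshold when any of 8 single libraries was left out. Among the other listed genes the same test called LYZ (0.78, adjusted p = 0.00079), a myelomonocytic marker, and BATF3 (-0.45), CXCL8 (1.34), DUSP1 (0.76) and ELK3 (0.64), with adjusted p-values of 0.017 to 0.035 for these 4. That is 1 of 10 myelomonocytic markers, 1 of 14 AP-1 partners and competitors and 1 of 11 AP-1 targets. It is also 1 of 22 other immediate early genes, 1 of 7 SRF-related genes and 0 of 23 of the kinase chain. Of all tested genes 5.34% were called in the interaction. Groups of 3 libraries were too small for a search for single outlying libraries.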

How the results depend on the processing

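Of the member values under other settings 1470 kept their side of the threshold, 61 lost a call and 29 gained one. Of called values 0 changed sign. Among the 1470 are 25 sign changes, in 8 results that were called neither as reported nor in that setting. The number of genes called for ABT against DMSO, 2, was 1 with median-of-ratios scaling, 0 with only the libraries compared, 1 without the 4 libraries numbered 1, 5 after removal of the GC and length trend and 5 after that removal with a replicate block. Over all tested genes the calls, 15 as reported, numbered 8, 0, 147, 633 and 1209 in these settings. FOS, FOSB, JUNB, EGR1 and IER2 decide these counts, and the cause was not tested. Leaving out 1 library at a time gave 1 to 2 called genes for ABT against DMSO, 0 to 2 for Comb against ELI, 5 to 10 for ELI against ABT and 1 to 2 for the interaction. Comb against DMSO stayed at 8. The replicate block (paired fit) called 8 genes for ELI against DMSO and 3 for ABT against DMSO, where EGR1 was added, and 9 for Comb against ABT, where JUND was added. That block also pairs Comb by number, where the deviations gave no pairing. It changed no other call among the 10 genes. Over all tested genes the counts without 1 library ran from 2291 to 5871 for ELI against DMSO, 588 to 1529 for Comb against ELI and 322 to 1123 for the interaction. With only the libraries compared, 1994 genes were called for ELI against DMSO and 2252 for Comb against ELI. With the replicate block 142 were called for ABT against DMSO, and 2352 in the fit of 9 libraries. Depth limits IER3 most, at 11 to 94 reads.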
